A study of Mus musculus with 3 samples.

Results

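Stretches of closely tiled DNA were examined in mouse embryonic stem cells for how 5-methylcytosine (5mC) and 5-hydroxymethylcytosine (5hmC) changed from their ends to their middle. A run was taken as an unbroken series of consecutive probe numbers among the 88734 probes measured on all 3 arrays, and runs of 8 or more probes were kept. There were 1606 such runs of 26979 runs in all, and they held 15764 probes, 17.8% of the probes. The choice used probe numbers only and no measured value. Run length had a median of 9 probes and a maximum of 23, with 587 runs of exactly 8 probes, 692 of 10 or more and 79 of 15 or more.

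The cells were wild-type embryonic stem cells. For 1 array methylated DNA was precipitated with an MBD reagent, a protein domain that binds methylated CpG, and for 2 arrays DNA was immunoprecipitated for 5hmC. One 5hmC array is marked IVT, a word the labels do not explain, and it is named the IVT array below. The precipitate was the Cy5 channel throughout, and total genomic DNA of the cells was the Cy3 channel. There was 1 array per group, so no value has a replicate, no p-value was computed, and differences between arrays are untested. All spreads and 95% intervals below run over runs or ends within an array and not over cultures or hybridisations. Runs and probes of an array are not independent replicates.

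In mammals 5mC is laid down mostly at CpG dinucleotides by DNA methyltransferases, and TET enzymes oxidise it to 5hmC, which embryonic stem cells hold in readily measured amounts. CpG-dense stretches at gene starts are mostly free of 5mC in these cells, and 5hmC is known at enhancers, in gene bodies and at the flanks of CpG-dense stretches. Precipitated fragments are commonly longer than a probe, so neighbouring probes can read the same fragments. The deposited table gives neither position nor gene nor sequence for a probe, so none of the runs is placed in the genome here, and neighbouring numbers were taken as neighbours on the DNA.

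Values are the deposited log ratios, whose log base and centring are not stated in the sources used here. A higher value is read here as more precipitated DNA, which is likely but rests only on the channel order that the labels give, and with the opposite sign every "higher" below would read "lower". An unknown centring cancels from a difference between probes of 1 array, but levels of different arrays were not set against each other. The probes of the long runs had a median of 0.28 with an SD of 1.03 for 5mC, 0.21 with an SD of 1.23 for 5hmC and -0.42 with an SD of 1.22 on the IVT array. Over all probes the medians were 0.24, 0.02 and -0.53.

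The ends of long runs carried less 5hmC and less 5mC than their centres, whereas the median difference on the IVT array had an interval that includes 0. Divided by each array's SD over all probes, the medians were -0.28 for 5hmC and -0.19 for 5mC. The scales and noise of the arrays may differ, so the sizes are not ranked. For each run the edge was the mean of the 4 outermost probes, 2 at each end, and the centre was the mean of all probes at least 3 steps from the nearer end. For 5hmC the median edge was 0.11 and the median centre 0.54. The difference within runs, edge minus centre, had a median of -0.33 (95% interval -0.37 to -0.29) with an SD of 0.61 over 1606 runs. For 5mC the median edge was 0.32 and the median centre 0.51, and the difference had a median of -0.19 (-0.23 to -0.14) with an SD of 0.69. On the IVT array the edge had a median of -0.31 and the centre of -0.33. Its difference had a median of -0.017 (-0.054 to 0.034) with an SD of 0.75. The SD over runs exceeded the size of the median on each array, so single runs departed widely from these values.

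Counted by run, the 5hmC edge lay below the centre in 1158 of 1606 long runs, or 72.1%. Over all 2566 runs of 7 or more probes, the shortest for which the same edge and centre exist, the share was 69.3%. For 5mC the edge was lower in 971 long runs, 60.5%, against 58.3% of the runs of 7 or more. The IVT array had 815 long runs with a lower edge, 50.7%, against 49.1%. Since long runs make up most of those 2566, these background shares differ little from the members' own.

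A measure that exists for shorter runs too, the mean of the 2 outermost probes minus the middle 1 or 2, gave a wider background of 14403 runs of 3 or more probes. By it the 5hmC ends were lower in 1136 long runs, 70.7%, while 56.4% of all 14403 runs were. Lower ends by more than 0.5 occurred in 758 long runs, 47.2%, against 25.2% of all runs, and higher ends by more than 0.5 in 173, 10.8%, against 15.4%. For 5mC the ends were lower in 946 long runs, 58.9%, against 50.1% in the background. The 5mC ends were lower by more than 0.5 in 625, 38.9%, against 30.3%, and higher by more than 0.5 in 367, 22.9%, against 29%. The IVT shares were nearer to the background, with lower ends in 820 long runs, 51.1%, against 47.2%. Its ends were lower by more than 0.5 in 508 long runs, 31.6%, against 26.6%, and higher by more than 0.5 in 504, 31.4%, against 29.4%. For 5hmC and 5mC the median of this measure went with length. For 5hmC it was -0.0046 in runs of 3 probes, -0.10 in runs of 5, -0.25 in runs of 7 and -0.45 (-0.49 to -0.39) in the long runs. For 5mC it was 0.060 at 3 probes, 0.038 at 5, -0.12 at 7 and -0.24 (-0.29 to -0.18) in the long runs. On the IVT array it was 0.057 at 3 probes, 0.096 at 5, 0.047 at 6 and 0.11 at 7. The interval at 6 probes, -0.0093 to 0.096, includes 0, and those at 3, 5 and 7 do not. IVT ends of these shorter runs thus tended to be higher than the middle, while long runs had -0.022 (-0.096 to 0.030). The middle of a short run lies closer to its ends by construction.

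**Figure D1:**
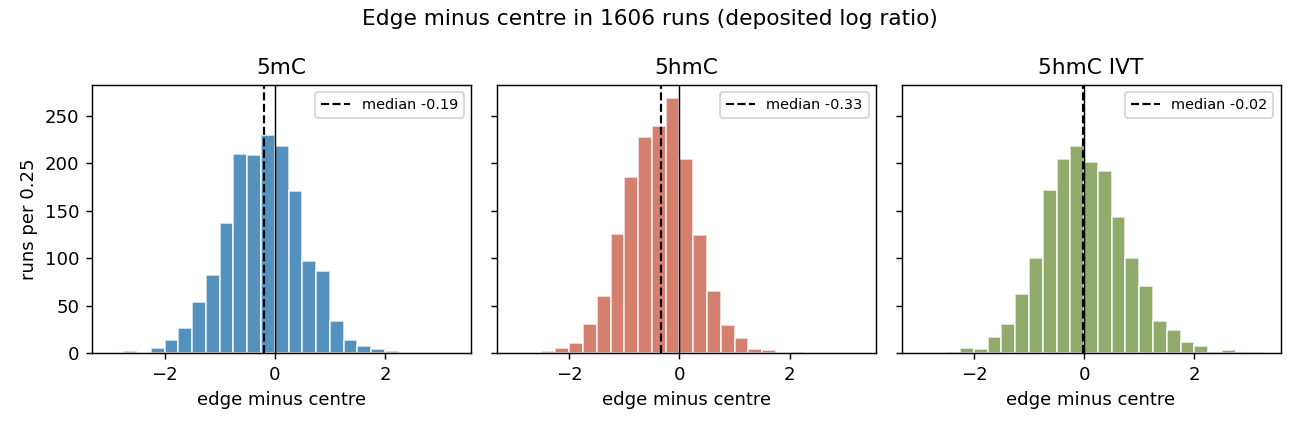
Histograms of edge minus centre in the 1606 runs of 8 or more probes, 1 panel per array, in deposited log ratio units, with bins of 0.25; the solid line is 0 and the dashed line the median. The 5hmC histogram is centred at -0.33 and the 5mC histogram at -0.19, and the IVT histogram lies about 0.

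Place by place, 5hmC rose over the first probes inward. The outermost probes had a median of 0.0055, those 1 step in 0.11, those 2 steps in 0.27 and those 3 steps in 0.37, each over 3212 probes. Within runs the rise was 0.15 (0.13 to 0.18) for the first step inward, 0.16 (0.13 to 0.18) for the next and 0.099 (0.064 to 0.13) for the last of these 3 steps. In runs of exactly 8 probes, where every place holds the same 587 runs, the mean 5hmC value from the lowest to the highest probe number was -0.020, 0.16, 0.34, 0.41, 0.36, 0.28, 0.095 and -0.033. The profile was thus an arch with its top at place 4 of 8. The SD over runs at single places was between 1.13 and 1.19, several times the height of the arch.

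In deposited units the 5mC profile moved over a narrower range and later. Its medians were 0.25 at the outermost probe, 0.25 at 1 step, 0.30 at 2 steps and 0.33 at 3 steps. The first step inward brought 0.026 (-0.022 to 0.071), an interval that includes 0, and the next brought 0.13 (0.072 to 0.17). The 5mC array has a narrow peak of values at 0.24, and 12.3% of outermost probes lay within 0.05 of it, against 10.04% of all probes in long runs. The part of this peak in the flat outer profile was not tested beyond the value without it: leaving these probes out kept the median edge minus centre within its interval. IVT medians by step were -0.42, -0.43, -0.40 and -0.45 and showed no order.

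The tails of the 5hmC and 5mC arrays followed the same places. Of the outermost 5hmC probes, 11.02% fell in the lowest 10% of the whole array and 9.09% in the highest 10%. At 3 steps inward 5.70% were in the lowest and 16.3% in the highest. For 5mC the share in the highest 10% went from 10.2% at the outermost probe to 13.7% at 3 steps, and the share in the lowest 10% from 9.84% to 7.16%. High values of both marks were therefore more frequent inside the runs than at their ends. On the IVT array the share in the highest 10% was 12.7% at the outermost probe and 10.1% at 3 steps, the opposite order, while the shares in the lowest 10% were 7.50% and 7.07%.

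The ends of a run behaved alike on average. The end with the lower probe numbers minus the end with the higher numbers had a median of -0.019 (-0.072 to 0.067) for 5hmC, 0.010 (-0.060 to 0.056) for 5mC and 0.013 (-0.059 to 0.080) on the IVT array. Within a run the ends were often far apart, since the size of this difference had a median of 0.75 for 5hmC, 0.66 for 5mC and 0.73 for the IVT array. Both ends lay below the centre in 727 runs for 5hmC (45.3%), in 640 for 5mC (39.9%) and in 489 for the IVT array (30.4%). Both lay above it in 166 runs (10.3%), 336 (20.9%) and 461 (28.7%) in the same order. In the remaining runs, 713, 630 and 656, the centre lay between its ends. These counts have no share over shorter runs beside them and describe the long runs only.

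The lower ends went with the size of the gap in probe numbers beyond them. Of the 3212 ends, 870 were followed by only 1 to 4 missing numbers before the next probe, 146 by 5 to 20, and 2196 by more than 20. These limits were chosen after seeing the data, and gap size was not used to choose the runs. At ends with more than 20 missing numbers the 2 outermost 5hmC probes had a median of -0.043 and the centre of the same runs 0.59. Edge minus centre had a median of -0.54 (-0.58 to -0.51) with an SD of 0.78, and it was below 0 at 1663 ends, 75.7%. Where 1 to 4 numbers were missing the median edge was 0.50, the median centre 0.54 and the difference 0.057 (-0.013 to 0.12), with 413 ends (47.5%) below 0. The interval of the second group includes 0, and the intervals of the groups do not meet. These intervals count each end on its own, although the ends of a run share a centre and 557 runs have an end in each group. Taken per run, the narrow ends gave 0.065 (0.0084 to 0.13) over 733 runs, an interval that leaves out 0.

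For 5mC the same split gave -0.28 (-0.32 to -0.25) at ends with more than 20 missing numbers and 0.037 (-0.030 to 0.10) where 1 to 4 were missing. The 5mC edge was lower at 64.3% of the former ends and at 48.3% of the latter. IVT differences were -0.0080 (-0.056 to 0.059) and -0.062 (-0.13 to 0.041), so the interval included 0 in both classes. In finer classes the 5hmC difference was 0.034 at 690 ends with 1 missing number, 0.27 at 180 with 2 to 4, -0.21 at 146 with 5 to 20, -0.49 at 465 with 21 to 100, -0.56 at 1228 with over 100 and up to 1000, and -0.54 at 503 with over 1000. The 3 classes beyond 20 missing numbers had overlapping intervals. The median run length was 9 in each of these classes.

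**Figure D2:**
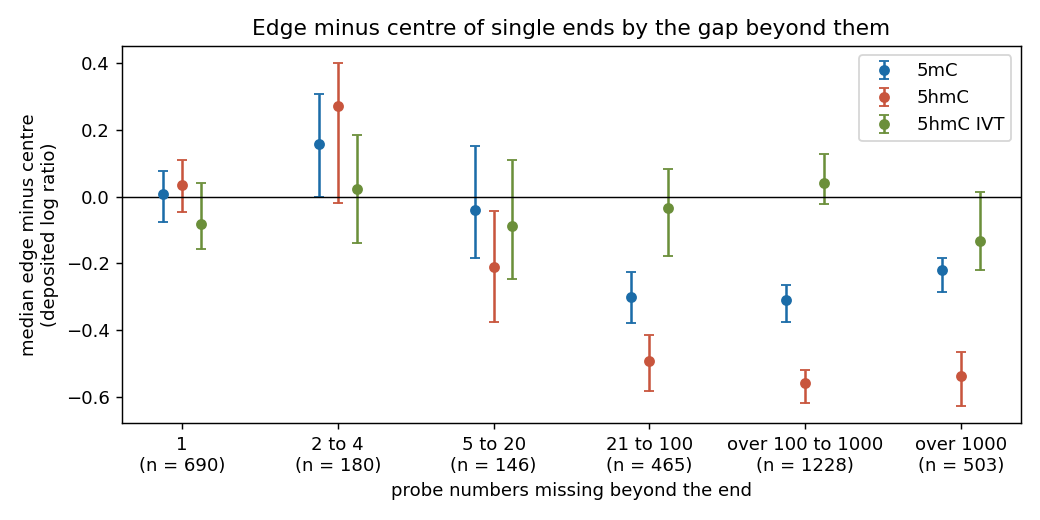
Median edge minus centre of single run ends (2 outermost probes minus the centre of the run), by the count of probe numbers missing beyond the end, for the 3 arrays, in deposited log ratio units; bars are 95% order-statistic intervals over ends. 5hmC and 5mC lie near or above 0 up to 4 missing numbers and at -0.49 to -0.56 and -0.22 to -0.31 beyond 20, and each IVT interval includes 0.

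The levels at these ends showed the arch opening on the side of the wide gap. With more than 20 missing numbers the 5hmC median was -0.14 at the outermost probe, 0.039 at 1 step, 0.25 at 2 steps and 0.38 at 3 steps. With 1 to 4 missing numbers it was 0.37, 0.44, 0.47 and 0.44. The intervals of these classes did not meet at the outermost probe and overlapped at 3 steps. For 5mC the medians were 0.24, 0.24, 0.29 and 0.34 on the wide side and 0.32, 0.32, 0.37 and 0.33 on the narrow side.

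**Figure D3:**
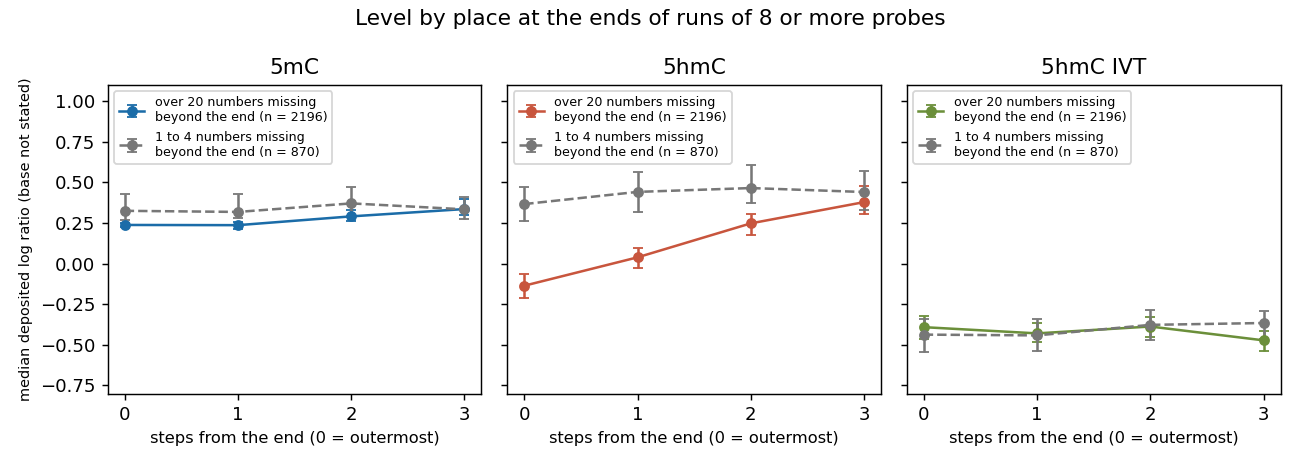
Median deposited log ratio at 0 to 3 steps from an end of a long run, for ends with over 20 missing probe numbers beyond (2196 ends, solid) and with 1 to 4 (870 ends, dashed), 1 panel per array; bars are 95% order-statistic intervals over ends. The 5hmC line of wide gaps climbs from -0.14 to 0.38 while the line of narrow gaps stays between 0.37 and 0.47.

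Runs with 1 end of each kind gave this comparison against a shared centre. There were 557 such runs, and their centre had a median of 0.58 for 5hmC. The end at the wide gap had a median of -0.25 and the end at the narrow gap 0.61. The wide end minus the narrow end within a run had a median of -0.76 (-0.88 to -0.64) with an SD of 1.04, and the wide end was lower in 429 runs, 77.0%. For 5mC the ends had medians of 0.15 and 0.56 around a centre of 0.52, the difference was -0.40 (-0.54 to -0.29), and the wide end was lower in 375 runs, 67.3%. IVT ends differed by -0.12 (-0.21 to 0.019), with the wide end lower in 298 runs, 53.5%. No share over shorter runs stands beside these counts, so they describe the long runs only.

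By whole runs, 776 had more than 20 missing numbers at both ends and 137 had 1 to 4 at both. In the former the 5hmC edge minus centre was -0.50 (-0.55 to -0.44) and the edge was lower in 79.6% of runs. In the latter it was -0.013 (-0.15 to 0.059) with 51.8% lower. Neither share has one over shorter runs beside it. The 5mC differences were -0.28 (-0.33 to -0.22) and -0.027 (-0.17 to 0.088). The contrast between gap classes had the same direction at either end of the numbering and in runs of 8 or 9 probes as in longer ones. At wide gaps the 5hmC difference was -0.54 at low-number ends and -0.55 at high-number ends, -0.50 in runs of 8 or 9 probes and -0.60 in runs of 10 or more. At narrow gaps these values were 0.057, 0.057, 0.12 and -0.010.

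The 5hmC difference tended to be larger in longer runs. Edge minus centre was -0.28 (-0.34 to -0.24) at 8 probes, -0.33 at 9, -0.33 at 10, -0.35 at 11, -0.50 (-0.63 to -0.33) at 12 to 14 and -0.45 (-0.62 to -0.21) at 15 to 23. The intervals of the shortest and the longest class overlap. The centre of a run of 8 lies 3 steps in, while that of a longer run reaches further inward by construction. The 5hmC median over probes was 0.37 at 3 steps and 0.47 at 4, and the part of this in the trend was not tested. For 5mC the values lay between -0.15 at 8 probes and -0.25 at 15 to 23, with overlapping intervals. IVT runs of 12 to 14 probes had -0.17 (-0.24 to -0.082), the only length class of this array whose interval left out 0, in 186 runs. Runs of 7 probes, just outside the minimum, had -0.21 for 5hmC, -0.11 for 5mC and 0.080 on the IVT array, near the -0.28, -0.15 and 0.035 of runs of 8.

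The 5hmC arch was lower in the runs with the least 5mC than in the other runs. The runs were split into 3 equal parts by their mean 5mC value. In the lowest part the 5hmC edge minus centre was -0.16 (-0.23 to -0.12), in the middle part -0.39 (-0.51 to -0.33) and in the upper part -0.47 (-0.53 to -0.38). The intervals of the middle and upper parts overlap, and the parts were not compared for the gaps beyond their ends. In the IVT array the same parts had -0.11 (-0.17 to -0.052), -0.027 (-0.13 to 0.067) and 0.17 (0.082 to 0.26), which is the opposite order. On that array the edge was below the centre in 58.5% of runs in the lowest part, 51.4% in the middle and 42.4% in the upper part. Each part thus held many runs of either direction. Splitting by the mean 5hmC value gave a 5mC edge minus centre of -0.086 (-0.15 to -0.0057) in the lowest part, -0.26 (-0.31 to -0.17) in the middle and -0.23 (-0.31 to -0.13) in the upper part. The 3 log ratios share genomic DNA of these cells as denominator, and its part in these relations was not tested.

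Long runs also had higher levels than shorter ones on each array. The mean of a run had a median of 0.36 (0.30 to 0.44) for 5hmC in long runs, against 0.055 (0.029 to 0.081) in the 12797 runs of 3 to 7 probes and -0.015 in the 12576 runs of 1 or 2. For 5mC the medians were 0.45 (0.42 to 0.49), 0.28 (0.26 to 0.29) and 0.23. IVT medians were -0.27 (-0.30 to -0.24), -0.41 (-0.43 to -0.40) and -0.53. The excess of long runs over runs of 3 to 7 probes was thus 0.31 for 5hmC, 0.18 for 5mC and 0.15 on the IVT array. For 5hmC and 5mC it was larger in the centres than at the edges. The 5hmC centre exceeded the level of the shorter runs by 0.48 and the edge by 0.050, and for 5mC the values were 0.24 and 0.040. On the IVT array the centre was higher by 0.083 and the edge by 0.11, and no order between them is read. Within runs its edge minus centre had a median of -0.017 (-0.054 to 0.034). Probe by probe, the medians lay closer. For 5mC they were 0.28 in long runs against 0.24 over all probes, which include the long runs. For 5hmC they were 0.21 against 0.02, and on the IVT array -0.42 against -0.53. A longer run averages more probes, and the part of this in the excess and in the climb with length was not tested.

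The level climbed with length from 4 to 9 probes, and above 9 probes it showed no further order. For 5hmC the median run mean was -0.0059 at 3 probes, 0.093 at 5, 0.22 at 7, 0.31 at 8, 0.52 at 9 and 0.33 at 10. It was 0.61 (0.090 to 0.89) at 12 probes and 0.0077 (-0.38 to 0.63) at 15 to 16, where only 47 runs remained. For 5mC the values were 0.24 at 3 probes, 0.41 at 7, 0.44 at 8, 0.53 at 9 and 0.44 at 10. From 8 probes on, the intervals of neighbouring lengths overlapped on the 5mC and IVT arrays. For 5hmC they overlapped as well, with 0.22 to 0.43 at 8 probes and 0.39 to 0.62 at 9.

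**Figure D4:**
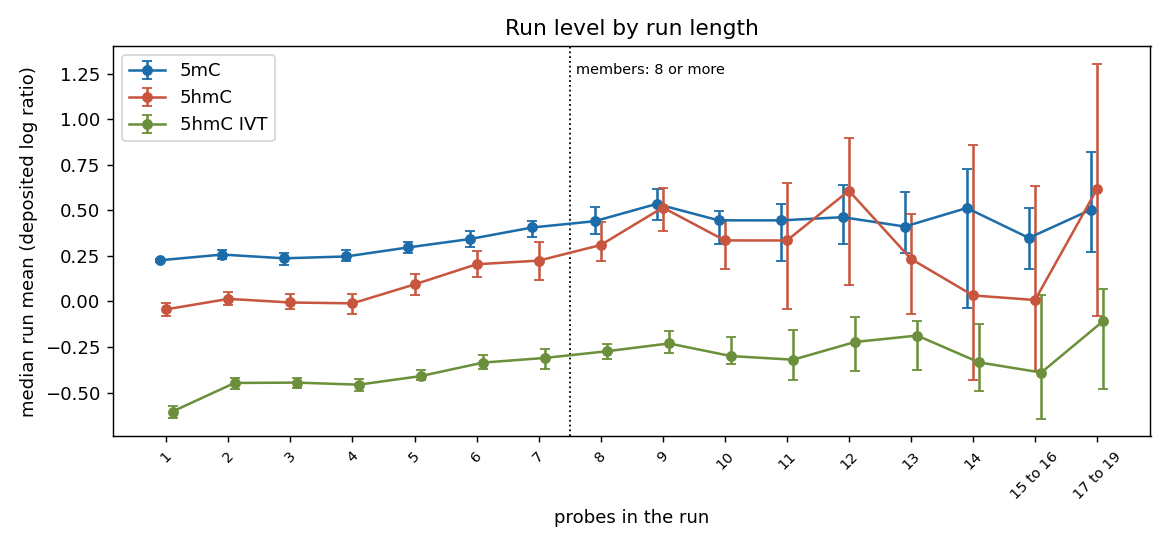
Median over runs of the run mean, in deposited log ratio units, against the number of probes in the run, for the 3 arrays; bars are 95% order-statistic intervals over runs, and lengths over 19 (5 runs) are not drawn. Levels climb from 4 to 9 probes on each array and then scatter with widening intervals.

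The runs differed widely among themselves, and the arrays differed in whether the variation lay between or within runs. For 5hmC the SD of run means was 0.98 and the SD of probes within runs 0.78. For 5mC the order was the opposite, with 0.61 between and 0.88 within, and on the IVT array the values were 0.83 and 0.94. The range from the lowest to the highest probe of a run had a median of 2.17 for 5hmC, 2.62 for 5mC and 2.74 on the IVT array. Neighbouring probes correlated both at the ends and inside. Across 3212 pairs of the outermost probe and its neighbour, Pearson's r was 0.743 for 5hmC, 0.337 for 5mC and 0.503 on the IVT array, and across 2625 pairs at 3 and 4 steps it was 0.703, 0.338 and 0.431. These correlations are across probes of 1 array, which share a hybridisation, and neighbours can share fragments. They pool the long runs, so differences in level between runs enter them.

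Edge and centre differed in the same direction on all 3 arrays in 673 runs, with the edge lower in 475 (29.6%) and higher in 198 (12.3%). No share over other runs stands beside these counts, so they are not read as a trait of long runs. Among the 673 runs, those with the largest mean difference in units of each array's SD were named, 2 in each direction. They were chosen by these values, which are a description. The strongest arch was the run of 8 probes from A_68_P31469348, with 1275 missing numbers before it and 1 after it. Its 5hmC values were -0.18, -0.18, 0.28, 1.35, 1.09, 1.79, -0.46 and -0.85, so that 3 inner probes lay above 1 and the 2 probes at either end below 0. Its 5mC values were 0.27, 1.24, 0.26, 2.97, 0.61, 0.26, -0.11 and -0.48, where a single probe set most of the centre. IVT values of this run were -0.23, -1.59, -0.0047, 0.51, 0.89, 1.401, -1.80 and -0.57. Edge minus centre was -1.56 for 5mC, -1.64 for 5hmC and -1.75 on the IVT array.

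The 8 probes from A_68_P23612478, with 529 missing numbers before and 25 after, followed. Edge minus centre was -1.55 for 5mC, -1.31 for 5hmC and -1.91 on the IVT array. Its 5hmC values were -1.04, -0.95, -0.59, 0.61, 0.26, -0.55, -0.50 and -1.04, so only the 2 middle probes were above 0. Its outermost 5mC probes disagreed, at -2.003 and 1.52, and the SD over its 5mC probes was 1.33.

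In the opposite direction stood the 8 probes from A_68_P22861611, with 209 missing numbers before and 134 after. Edge minus centre was 2.13 for 5mC, 0.88 for 5hmC and 2.73 on the IVT array. From the first to the last probe, IVT values were 0.99, 1.48, -0.47, -0.62, -2.41, 0.51, 0.996 and 1.42, and the 5hmC values were 0.30, 1.196, 1.19, 0.60, -0.53, 1.62, 1.34 and 0.81. The dip fell on the same probe, place 5 of 8, on each array, including 5mC, where it read -0.68. The 9 probes from A_68_P32380507 had 2476 missing numbers before and 1 after. Here place 5 of 9 had the lowest 5mC value, -1.07, and the lowest 5hmC value, -0.41. On the IVT array the dip was broader, with 4 probes between -1.71 and -1.45. Edge minus centre was 1.09 for 5mC, 1.47 for 5hmC and 2.90 on the IVT array. This run lies near the end of the numbering, where the IVT array was lower, with a median of -0.96 against -0.52 over all other probes, and leaving those probes out kept the medians over all runs inside their intervals.

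**Figure D5:**
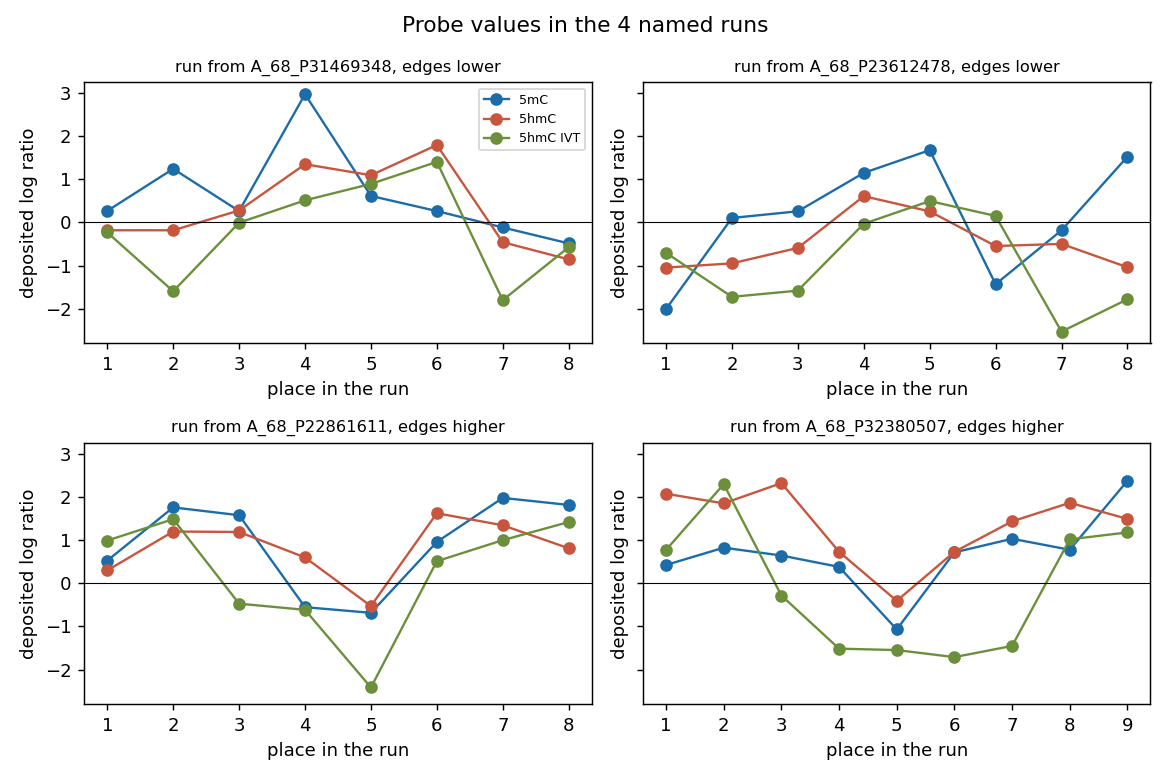
Deposited log ratio of every probe in the 4 named runs against its place in the run, for the 3 arrays; each point is 1 probe on 1 array. The upper runs peak inside, and the lower runs dip at place 5 on the 5mC and 5hmC arrays.

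The 5 runs of 21 to 23 probes did not share a shape. One of the 2 runs of 23 probes was low throughout, with 5hmC between -2.26 and -0.51, 5mC between -2.07 and 0.61 and IVT values between -3.68 and -0.67. Its edge minus centre was 0.28 for 5hmC, -8.7e-04 for 5mC and 0.79 on the IVT array. The other had 5hmC between -0.89 and 0.25, with an edge minus centre of 0.39. The run of 22 probes had higher edges on each array, by 1.01 for 5mC, 1.54 for 5hmC and 1.06 on the IVT array. Of the 2 runs of 21 probes, 1 had lower edges for 5mC (-0.80) and 5hmC (-0.93) and higher ones on the IVT array (0.93). The second had a 5hmC difference of -0.45, a 5mC difference of 0.028 and an IVT difference of -1.32. The lower 5hmC edge seen over 1606 runs was thus present in 2 of these 5.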

How the data were processed

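The authors deposited 1 table of 88736 probes with a score per probe and array, a signed number that reads as a log ratio of the channels. How the authors normalized and centred it, with which software, log base and genome build, is not given in the sources used here. Spot intensities were not used, so signal over background is not known and precision is limited by the number of arrays. Samples were grouped by title, 1 array per group. Members, measures and comparisons were chosen with earlier results of these data known. The 2 probes without a value on an array were left out, and runs were maximal series of consecutive probe numbers. Per run, edge (2 outermost probes per end) minus centre (3 or more steps from the nearer end) was computed from means and summarised by the median with its order-statistic 95% interval. Shares carry exact binomial intervals in the closing section. With 1 array per group no test was run. Runs were named, at most 2 per direction and by their first probe, where edge minus centre had the same sign on all 3 arrays and its mean, divided by each array's SD, was most extreme. The procedure was tested on simulated data with known edge effects. Alternatives changed the edge, the centre, the end, the summary, the scale, the minimum length, the joining of runs and the probes kept. Python 3.11.15, numpy 2.4.6, pandas 2.3.3, scipy 1.17.1 and matplotlib 3.10.9 were used.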

Additional observations from a re-analysis of the deposited data

How the results depend on the processing

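Of 111 alternative values, 86 lay inside the 95% interval of their main value. The 4 that changed direction came from ends with 1 to 4 missing numbers beyond them, a choice made after seeing the data, where the median edge minus centre was 0.065 for 5hmC and 0.045 for 5mC (main values -0.33 and -0.19) and the share of runs with the edge above the centre was 54.4% and 52.0% (main values 27.9%, interval 25.7 to 30.2, and 39.5%, interval 37.1 to 42.0). The 5mC intervals at these ends, -0.020 to 0.11 and 48.3 to 55.6%, include no difference. Those of 5hmC, 0.0084 to 0.13 and 50.7 to 58.1%, do not. With only ends that had over 20 missing numbers the medians were -0.58 and -0.29, and the shares 19.7% and 34.2%. Joining runs over 1 missing number, which gave 2979 runs, gave -0.49 and -0.25, and 21.4% and 35.5%. For 5hmC the difference was -0.37 and -0.48 with minimum lengths of 10 and 12, -0.40 with the outermost probe only and -0.38 at high-number ends only, and the share was 24.5% with a minimum of 12, 33.3% at low-number ends and 31.8% at high-number ends. The IVT array went from -0.017 and 49.3% to -0.082 and 45.8% with a minimum of 10 and to -0.18 and 38.9% with a minimum of 12, so its edges were lower in the longer runs. The excess in level of long over shorter runs was 0.26 for the IVT array against runs of 1 or 2 probes (main value 0.15), and 0.10 for 5mC with medians over probes (main value 0.18). Fewer runs remain with a longer minimum by construction, and for the other shifts the cause was not tested. The remaining alternatives (normal scores, values held at percentiles 1 and 99, the middle probes as centre, and probes left out at the end of the numbering or at the 5mC peak) kept each value within its interval. With 1 array per group no replicate could be left out, and the limit set by signal over background is not known. No paired analysis was possible because there was 1 array per group.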

Other observations

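The dependence on the gap beyond an end was also present in the 12797 runs of 3 to 7 probes, which are not among the long runs. At 15646 of their ends with more than 20 missing numbers beyond, the outermost probe minus the middle of the run had a median of -0.20 (-0.22 to -0.19) for 5hmC, -0.060 (-0.080 to -0.039) for 5mC and 0.084 (0.066 to 0.10) on the IVT array. At 8850 ends with 1 to 4 missing numbers the medians were 0.15 (0.13 to 0.16), 0.065 (0.035 to 0.094) and -0.064 (-0.089 to -0.036). The 5hmC and 5mC values thus changed sign with the gap, and the IVT values changed sign the opposite way. A run of 3 to 7 probes that ends at a narrow gap has more probes close beyond it, so its middle need not be the middle of the tiled stretch.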
